A study of Homo sapiens with 34 samples.

Results

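The genes described here encode the protein subunits of the cytosolic ribosome. They were taken by name from the deposited expression table of 34 B-cell lymphoma lines. A row was a member when its symbol was RPL or RPS, digits and at most one letter A, L or X, and RPLP0, RPLP1, RPLP2 and RPSA were added. The rule gave 82 of 31975 genes, 49 named for the large and 33 for the small subunit. Pseudogenes and Y-linked copies were left out by the rule, and no measured value chose a member. FAU and RACK1, which also encode ribosomal proteins, fall outside the name rule and are given separately.

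Each ribosome holds one copy of nearly every one of these proteins on a scaffold of ribosomal RNA, so the genes are known for being expressed at high level and in near-equal proportion. Their mRNAs typically begin with a C followed by a run of pyrimidines, the 5′ terminal oligopyrimidine (5′TOP) tract, through which mTOR and LARP1 set how strongly they are translated. Several of the proteins have roles outside the ribosome or are altered in disease: RPL5 and RPL11 bind MDM2 and thereby stabilise p53, RPS19 is the gene most often mutated in Diamond-Blackfan anaemia, and RPS15, RPL10, RPL22, RPL5 and RPL11 are mutated or deleted in lymphoid malignancies.

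The study profiled established human lymphoma lines in the setting of CXCR4-directed radioligands for mantle cell lymphoma. The groups were mantle cell lymphoma (MCL, 11 lines), diffuse large B-cell lymphoma of germinal centre type (GCB, 14 lines), diffuse large B-cell lymphoma of activated type (ABC, 6 lines) and Burkitt lymphoma (BL, 3 lines). Each line was sequenced as 1 library from total RNA, and the labels name no treatment, library kit or batch. Whether the libraries were made together cannot be told from the labels. A re-analysis mark stands on the labels of 30 libraries and is missing from 4, the MCL lines HBL-2, MAVER-1 and UPN1 and the BL line Daudi. Lines were the replicates of a pathology, so a p-value reflects only how lines differ from one another, with 1 library for each.

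The lines were first divided by a gene outside the family. ZNF593 lay at the lowest value of the table, 4.55, in 9 lines and between 8.71 and 11.88 in the other 25, which are called here the second and the first library type. The first type held all 11 MCL lines, 6 GCB lines (HT, Pfeiffer, SU-DHL-4, SU-DHL-5, SU-DHL-10 and Toledo), 5 ABC lines (HBL-1, MD903, OCI-Ly3, OCI-Ly10 and SU-DHL-8) and all 3 BL lines. The second type held the GCB lines DB, DOHH-2, Karpas422, NU-DHL-1, OCI-Ly1, OCI-Ly7, SU-DHL-6 and WSU-DLCL2 and the ABC line NU-DUL-1. Reads recovered from the deposited values came to 22.6 to 165 M (megareads) per library in the first type, to 2.55 to 4.84 M in the 8 second-type GCB lines and to 22.7 M in NU-DUL-1. T-cell markers reached 159 reads per M reads of a library in the first type and 171 in the second, myeloid markers 5.88 and 1.47, erythroid markers 0.233 and 0.785, and fibroblast markers 60.3 and 467.

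Of the members, 64 had a promoter entry in RefSeq (GRCh38.p14), and 46 of these (71.9%) had a pyrimidine tract at an annotated start, counted as a C at the first base followed by at least 4 bases that are each C or T on the gene's strand. The share was 4.99% among 27241 other genes with an entry, 7 of 8 among translation factors known for such tracts, and 6 of 66 among mitochondrial ribosomal proteins. The windows below show the 15 bases before and the first 15 bases of the transcript, 5′ to 3′ on the gene's strand, with the tract in capitals, for members whose levels are described below. Windows without capitals have no such tract at the annotated first base, which says only that these letters were not there.
RPLP0, ribosomal stalk, chr12:120201097-120201126, minus strand: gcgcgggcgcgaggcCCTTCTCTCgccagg
RPS6, S6 kinase substrate, chr9:19380222-19380251, minus strand: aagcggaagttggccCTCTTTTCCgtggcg
RPL22, chr1:6199581-6199610, minus strand: tagttcgctcacctcCCTTTCTaactccgc
RPS19, chr19:41860240-41860269, plus strand, the first of its annotated starts: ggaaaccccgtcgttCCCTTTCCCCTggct
RPS23, chr5:82278340-82278369, minus strand: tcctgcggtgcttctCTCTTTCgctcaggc
RPS3A, chr4:151099613-151099642, plus strand: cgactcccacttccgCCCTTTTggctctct
RPL38, chr17:74203663-74203692, plus strand: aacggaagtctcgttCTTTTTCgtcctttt
RPL36A, chrX:101390996-101391025, plus strand: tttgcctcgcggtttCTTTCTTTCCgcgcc
RPS26, chr12:56041903-56041932, plus strand: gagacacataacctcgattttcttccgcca
RPS28, chr19:8321481-8321510, plus strand: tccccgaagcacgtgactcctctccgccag
RPS29, chr14:49598696-49598725, minus strand: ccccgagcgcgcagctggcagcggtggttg
RPS27L, chr15:63157463-63157492, minus strand: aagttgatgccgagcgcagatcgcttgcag
The 12 windows differ in sequence outside the tract, and the genes lie on 10 chromosomes. Members with a tract had a median correlation of 0.92 with the median of the other members over the 25 first-type lines (46 genes), and those with an entry but no tract had 0.88 (17 genes).

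The family took up between 3.91 and 23.9% of a line's reads. In the 11 MCL lines the share was 5.09% in HBL-2, 5.80% in MAVER-1, 7.32% in UPN1 and 8.91% in SP-49, between 12.6 and 16.7% in SP-53, REC-1, GRANTA519, Mino and Z-138, 21.7% in Jeko-1 and 23.9% in JVM2. These lines hold both the lowest and the highest shares of the first type, with a mean of 13.1% ± 6.17 (SD, n = 11). The 6 first-type GCB lines lay between 12.1 and 17.3% (13.8% ± 1.85, SD, n = 6). The 5 first-type ABC lines lay between 12.5 and 17.6% (14.96% ± 2.12, SD, n = 5). In BL the share was 10.8% in Daudi, 18.7% in Ramos and 20.4% in Raji (16.6% ± 5.14, SD, n = 3). The 4 first-type groups overlap, and the GCB and ABC lines vary least. The second-type GCB lines lay between 3.91% in Karpas422 and 12.3% in NU-DHL-1 (7.03% ± 2.78, SD, n = 8), and NU-DUL-1 had 6.01%. Wilson 95% intervals of these shares spanned at most 0.0806 percentage points and cover counting error only. A share is relative to all other RNA of a line. In bulk RNA of a line, fewer cells with high levels and lower levels in every cell cannot be told apart.

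**Figure D1:**
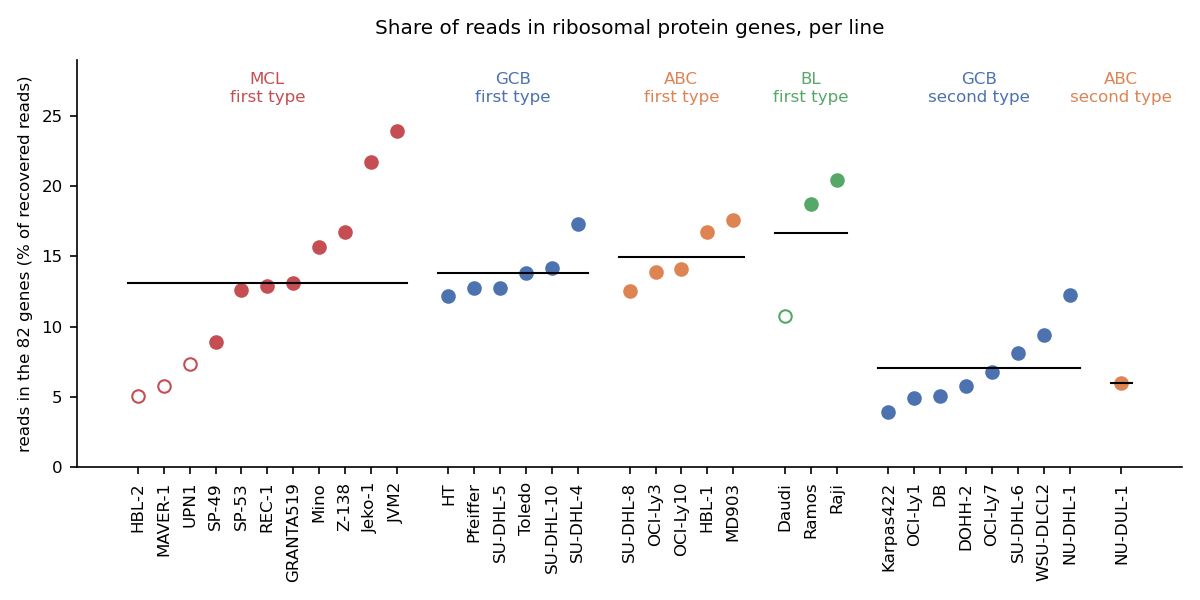
Share of recovered reads in the 82 ribosomal protein genes for each of the 34 lines, by pathology and library type, with a black line at the group mean and open symbols for the 4 libraries not marked as re-analysed. MCL lines span 5.09 to 23.9%, and the second-type GCB lines, apart from NU-DHL-1 at 12.3%, lie below all first-type GCB lines.

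Levels of single genes are given below as deposited, on the log2 scale of the variance-stabilising transform (VST), where 1 unit is about a doubling of reads and the table's lowest value, 4.55, stands for 0 reads. A filter that asked for at least 3 of the 25 first-type lines more than 1 unit above that lowest value kept 79 members and 18432 genes in all. RPL3L, RPL10L and RPS10L did not pass. RPL3L, the striated muscle paralog of RPL3, had 0 to 38 reads per line, RPL10L, the testis paralog of RPL10, had 0 to 10, and RPS10L had 0 to 22.

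The 79 members moved together from line to line. Over the 25 first-type lines a single component took up 81.2% of their variance, against 16.9% for all genes tested. The median SD of a member was 0.89, against 0.66 for all genes, and 68 of the 79 had a correlation above 0.8 with the median of the other members (a description over 25 lines, in which the genes share libraries and depth). Of the 79, 76 had their lowest level in HBL-2, MAVER-1 or UPN1, and 56 were highest in JVM2. The shared movement was weaker within the 6 first-type GCB lines, over the 80 members that passed the filter in GCB. There a single component took up 56.5% of the variance, 30 members had a correlation above 0.8 and 6 had one below 0. The median SD of a member was 0.36 in these GCB lines, below the 0.45 of all genes.

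The 8 most variable members were RPS26, RPS29, RPS25, RPS21, RPL34, RPS12, RPL32 and RPL39, and the 5 least variable were RPL3, RPL4, RPLP0, RPL6 and RPL17. RPS26, a small-subunit protein at the mRNA exit channel, had an SD of 1.48 and ran from 11.20 in HBL-2 to 17.42 in JVM2, with a median of 14.62. It departed from the other members in both directions: it was low relative to them in HBL-1 and high in OCI-Ly10. RPS29, a zinc-binding small-subunit protein, had an SD of 1.30 and ran from 11.97 in MAVER-1 to 17.79 in JVM2, with a correlation of 0.97 with the median of the other members. RPL3, which lies close to the peptidyl transferase centre, had the smallest SD, 0.55, and ran from 15.93 in SP-49 to 17.95 in Raji.

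Among the 79, RPL36A was the one gene that ran against the others, with a correlation of -0.62. It was 9.68 in UPN1, 9.52 in MAVER-1 and 9.14 in HBL-2, the 3 lines where most members were low, and 7.60 in JVM2. RPL36A overlaps the readthrough gene RPL36A-HNRNPH2 in RefSeq, as RPL17 overlaps RPL17-C18orf32 and RPS10 overlaps RPS10-NUDT3. Reads shared with these readthrough genes may not have been counted for the member, so the levels of these 3 genes are uncertain.

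**Figure D2:**
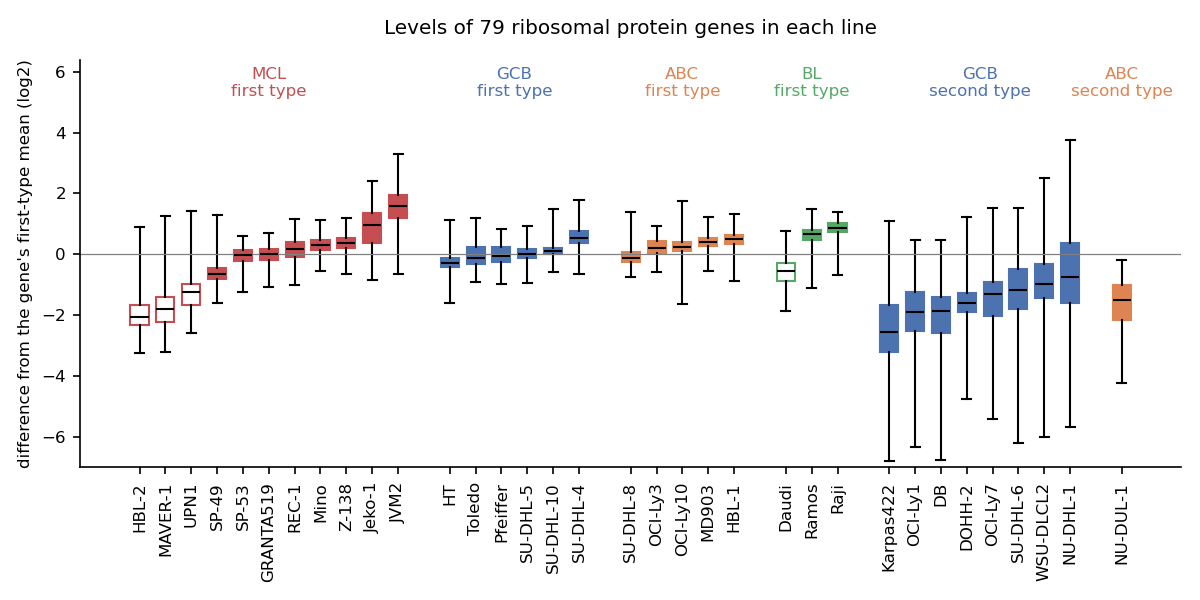
Distribution over the 79 members of the difference, in log2 units, between a gene's level in a line and its mean over the 25 first-type lines; boxes are quartiles, black lines medians, whiskers the lowest and highest gene, and open boxes the libraries not marked as re-analysed. Whole boxes shift between lines in the first type, while the second-type lines have longer whiskers downward.

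Whether the family differs between lymphoma entities was tested in the first-type lines with 1 mean per pathology in limma, with Benjamini-Hochberg adjustment over all 18432 genes. No member passed an adjusted p of 0.05 across the 4 pathologies (0 of 79), where 4.26% of all genes did. In the 6 pairwise comparisons 0 of 79 members passed as well. The background there was 3.41% for MCL minus GCB, 0.814% for MCL minus ABC, 2.18% for MCL minus BL, 0.315% for ABC minus GCB, 0.157% for BL minus GCB and 0.656% for BL minus ABC. At an unadjusted p under 0.05 limma counted 0 members across the 4 pathologies, 4 members for MCL minus ABC, 1 for MCL minus BL and 0 for the other 4 comparisons, and limma voom on the recovered reads counted 4, 1 and, for MCL minus GCB and across the 4 pathologies, 1 each, with 0 after adjustment throughout.

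Most members had a lower mean in MCL than in the other pathologies, by less than the test could separate from the spread between lines. For MCL minus GCB the median difference over the 79 members was -0.29, against 0.04 over all genes, and 68 members were below 0. For MCL minus ABC it was -0.48, against 0.03, with 75 members below 0. For MCL minus BL it was -0.49, against 0.09, with 74 members below 0. Since the members move together, these counts are not independent. The median standard error of a member was 0.44, 0.47 and 0.57 in these 3 comparisons, close to or above the size of the median differences. The medians of the other comparisons were 0.20 for ABC minus GCB, 0.22 for BL minus GCB and 0.02 for BL minus ABC. Those with BL turned on single lines of 3: without Raji they were -0.07 and -0.27, and without Daudi 0.68 and 0.51. Without Ramos the median for BL minus ABC was also below 0.

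The direction of the medians for MCL minus GCB and MCL minus ABC depended on the unmarked libraries. That for MCL minus BL did not, where the unmarked BL line Daudi was left out as well. Among re-analysed first-type lines alone, the median member difference was 0.23 for MCL minus GCB and 0.06 for MCL minus ABC, above 0 in both, and -0.44 for MCL minus BL, with 0 members called in each comparison.

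**Figure D3:**
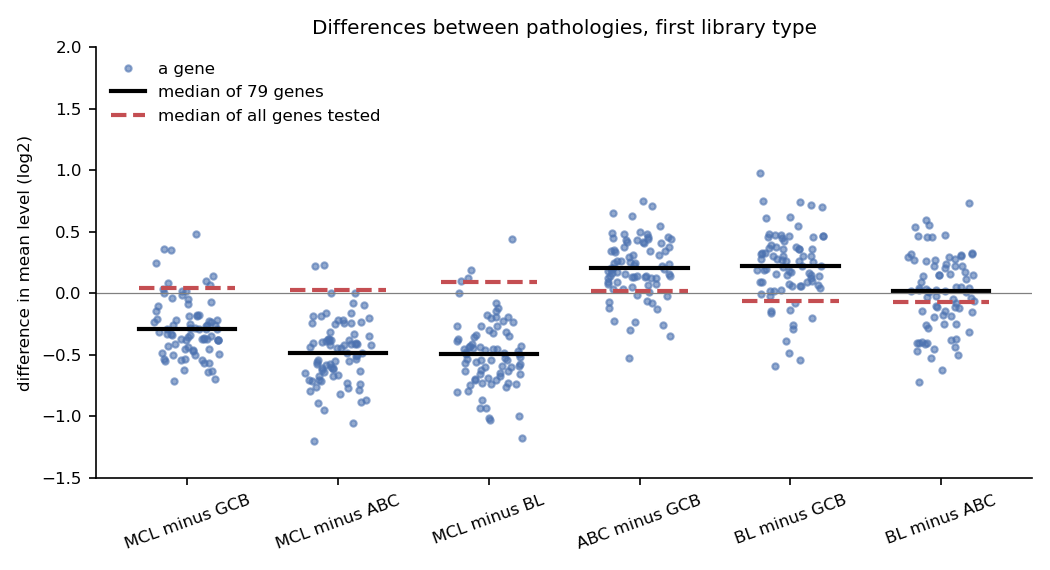
Difference in mean level between pathologies for each of the 79 members (blue), in log2 units, in the first-type lines, with the median of the members (black) and of all genes tested (dashed red). The members' medians lie at -0.29, -0.48 and -0.49 in the 3 comparisons with MCL, and 0 members passed the test in any comparison.

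The 4 members with an unadjusted p under 0.05 for MCL minus ABC were RPL17, RPS2, RPL28 and RPL3. RPL3 lay between 15.93 in SP-49 and 17.79 in Z-138 in MCL, with a median of 16.93, and at 16.95, 17.37, 17.49, 17.59 and 17.91 in the 5 ABC lines. The groups overlap, with MD903 above every MCL line and the other 4 ABC lines inside the MCL range, and the difference was -0.61 ± 0.29 (SE, limma adjusted p = 0.352). RPS2, a small-subunit protein near the mRNA entry channel, lay between 15.89 in HBL-2 and 18.04 in Z-138 in MCL, with a median of 16.73. In ABC it was 16.89 in SU-DHL-8 and 17.46 to 18.07 in the other 4 lines, a difference of -0.87 ± 0.36 (SE, limma adjusted p = 0.261). RPL28 differed by -1.05 ± 0.50 (SE, limma adjusted p = 0.344) and RPL17 by -0.76 ± 0.29 (SE, limma adjusted p = 0.229), and the ranges of MCL and ABC overlapped for both. RPL17 was also the member with an unadjusted p under 0.05 for MCL minus BL, at -0.73 ± 0.35 (SE, limma adjusted p = 0.319). All 4 genes had lower means in the unmarked than in the marked MCL lines. For RPL28 these were 14.20 and 16.46, with 16.90 in first-type ABC, and for RPL17 7.50, 8.40 and 8.91. For RPS2 the 3 means were 16.16, 17.05 and 17.68, and for RPL3 16.27, 17.07 and 17.46.

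The ribosomal stalk, which recruits the elongation factors, consists of RPLP0 with copies of RPLP1 and RPLP2. RPLP0 (ENSG00000089157, chr12:120196699-120201111) lay between 16.06 in HBL-2 and 18.10 in Z-138 in MCL, with a median of 17.47, and between 16.96 in Pfeiffer and 17.61 in SU-DHL-4 in GCB, with a median of 17.16. In ABC it was 17.02, 17.55, 17.67, 17.91 and 18.15, and in BL 16.52 in Daudi, 17.89 in Raji and 17.99 in Ramos. All 4 groups overlap. The difference between MCL and GCB was 0.07, with a 95% interval of -0.55 to 0.69 (limma adjusted p = 0.942). RPLP1 and RPLP2 had SDs of 0.86 and correlations of 0.88 and 0.87 with the other members.

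RPS6 is the substrate of the S6 kinases downstream of mTOR. It lay between 14.52 in HBL-2 and 19.09 in JVM2 in MCL, with a median of 16.86, between 16.58 in Toledo and 17.54 in SU-DHL-4 in GCB, with a median of 17.00, and at 17.01 to 17.67 in the 5 ABC lines. In BL it was 16.50 in Daudi, 17.93 in Ramos and 18.00 in Raji. The MCL lines enclose all others, and MCL minus ABC was -0.88 ± 0.51 (SE, limma adjusted p = 0.456). RPS6 averaged 14.82 in the unmarked MCL lines, 17.19 in the marked ones and 17.42 in the first-type ABC lines. RPSA, the small-subunit protein also known as the laminin receptor, lay between 14.44 in MAVER-1 and 17.96 in JVM2 in MCL and at 16.44 to 17.28 in ABC, a difference of -0.60 ± 0.42 (SE, limma adjusted p = 0.551).

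RPL5 and RPL11 form a particle with 5S ribosomal RNA that can bind MDM2. RPL5 lay between 14.83 in SP-49 and 18.12 in JVM2 in MCL, with a median of 15.83, and between 15.97 in Toledo and 17.01 in SU-DHL-4 in GCB, with a median of 16.52. It was 16.27 to 17.05 in ABC, and 16.10 in Daudi, 17.04 in Ramos and 17.73 in Raji. RPL5 followed the other members less closely than most, with a correlation of 0.78. RPL11 lay between 14.25 in HBL-2 and 17.12 in Jeko-1 in MCL, with a median of 15.08, and at 15.67 to 16.64 in ABC, with MCL minus ABC at -0.71 ± 0.41 (SE, limma adjusted p = 0.441). Of the 10 proteins listed for MDM2 binding (RPL5, RPL11, RPL23, RPL26, RPS3, RPS7, RPS14, RPS27, RPS27L and RPS27A), 0 passed in any of the 6 comparisons, with medians between -0.52 for MCL minus ABC and 0.41 for BL minus GCB.

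RPL22, RPL10 and RPS15 are altered in lymphoid malignancies. RPL22 (ENSG00000116251), lost or mutated in some T-cell leukaemias, ran from 12.89 in HBL-2 to 15.80 in Jeko-1 in MCL, from 13.32 in SU-DHL-5 to 14.27 in SU-DHL-10 in GCB, from 13.86 to 14.85 in ABC, and was 14.72 in Ramos and 15.35 in Raji, with Daudi below both. BL minus GCB was 0.75 (95% interval -0.33 to 1.84, limma adjusted p = 0.757), so a doubling was not separated from no change. RPL10, recurrently mutated in T-cell acute leukaemia, ran from 15.13 in HBL-2 to 18.11 in Mino in MCL and reached 18.56 in the GCB line SU-DHL-10, against 16.80 to 17.60 in the other 5 first-type GCB lines. Its correlation with the other members was 0.54: relative to them it was high in MAVER-1, UPN1 and SU-DHL-10 and low in Jeko-1. RPS15, mutated in chronic lymphocytic leukaemia, ran from 13.81 in HBL-2 to 17.57 in Jeko-1 in MCL and from 15.66 in HT to 17.07 in SU-DHL-4 in GCB, and was 14.19 in Daudi, 16.66 in Raji and 16.68 in Ramos. The 5 genes of this list (with RPL5 and RPL11) had a median MCL minus GCB of -0.35, and 0 were called.

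Among genes mutated in Diamond-Blackfan anaemia, an inherited red cell aplasia, RPS19 ran from 13.70 in HBL-2 to 17.55 in JVM2 in MCL, from 15.22 in Pfeiffer to 16.50 in SU-DHL-4 in GCB and from 15.78 to 16.31 in ABC. RPS14 is not among the anaemia genes listed here, and its loss on chromosome 5 marks a form of myelodysplasia. It ran from 13.75 in HBL-2 to 18.46 in JVM2 in MCL and from 15.97 to 16.61 in ABC. The GCB and ABC lines lie inside the MCL range for both genes. RPS14 followed the other members most closely of all 79, with a correlation of 0.98. None of the 19 listed anaemia genes was called in the 6 comparisons (0 of 19 by limma and, as part of the members, by voom), with medians between -0.58 for MCL minus ABC and 0.30 for BL minus GCB.

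Some members are paralogs of another member. RPS27L, a p53-inducible paralog of RPS27, was 14.12 in JVM2, 12.09 in SP-49, 11.94 in Jeko-1 and 11.74 in SU-DHL-5, and 8.66 in HBL-2. Relative to the other members it was highest in SP-49, and its correlation with them was 0.60, against 0.91 for RPS27. RPL39L, a paralog of RPL39 known from testis and some tumours, was 8.50 in OCI-Ly10, against 9.97 to 10.86 in the other 4 first-type ABC lines. RPS4X, the X-linked form of RPS4, lay at 15.45 to 18.79 in MCL and 16.36 to 17.48 in GCB, with MCL minus GCB at 0.14 (95% interval -0.68 to 0.96, limma adjusted p = 0.902).

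The 3 unmarked MCL lines stood apart from the 8 marked ones. Of the 79 members, 59 were lower in HBL-2, MAVER-1 and UPN1 than in every marked MCL line and 1, RPL36A, was higher, where 5.80% of all genes were lower and 3.33% higher in this way. The median difference was -2.02 over members and -0.04 over all 16321 genes compared. RPS26 averaged 11.65 in the unmarked and 14.94 in the marked lines, RPS29 12.19 and 15.41, and RPL38 12.27 and 15.22. Of the 78 members with a lower mean, RPL4 and RPL5 differed least, with means of 16.47 against 17.23 and 15.50 against 16.22, and overlapped. Without SP-49, the marked line with the lowest share, 67 members were lower without overlap, where 1017 of 16079 genes were. The members were not the only set to be lower without overlap in these lines. Small nuclear-encoded subunits of oxidative phosphorylation took 0.222 to 0.265% of reads in the unmarked and 0.434 to 0.905% in the marked MCL lines. Mitochondrial ribosomal proteins took 0.306 to 0.402% and 0.389 to 0.653%, and translation factors 2.67 to 3.17% and 1.95 to 4.37%, both with overlap. The unmarked MCL libraries held 76.6, 82.4 and 103 M reads, within the 60.1 to 109 M of all MCL lines. In BL the unmarked line Daudi was below both Raji and Ramos in 74 of 79 members, where 33.3% of all genes were, with a median difference of -1.37 against 0.00. Daudi was also the shallowest first-type library, with 22.6 M reads against 59.1 and 92.4 M in the other BL lines, and the part of depth in this difference was not tested. Which processing or culture separates the marked from the unmarked libraries was not tested.

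In the second library type the family was lower, and unevenly so. Within GCB, which holds pathology constant, 46 of 80 members that passed the filter were lower in all 8 second-type lines than in all 6 first-type lines, and 0 were higher. Of all 19736 genes compared, 3.22% were lower and 3.59% higher in this way. The median difference was -1.54 over members and 0.12 over all genes, and 75 members were below 0. Against all 25 first-type lines, whatever their pathology, all 9 second-type lines were lower without overlap in 5 members, where 0.997% of all genes were. RPL3L was the 80th member, which passed on a handful of reads in shallow libraries, and RPL10L and RPS10L did not pass. The library type was read from the values of a gene and so this comparison is a description with no test. The type also coincides with depth, 2.55 to 4.84 M against 70.8 to 108 M reads, and the parts of type, depth and line cannot be told apart.

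**Figure D4:**
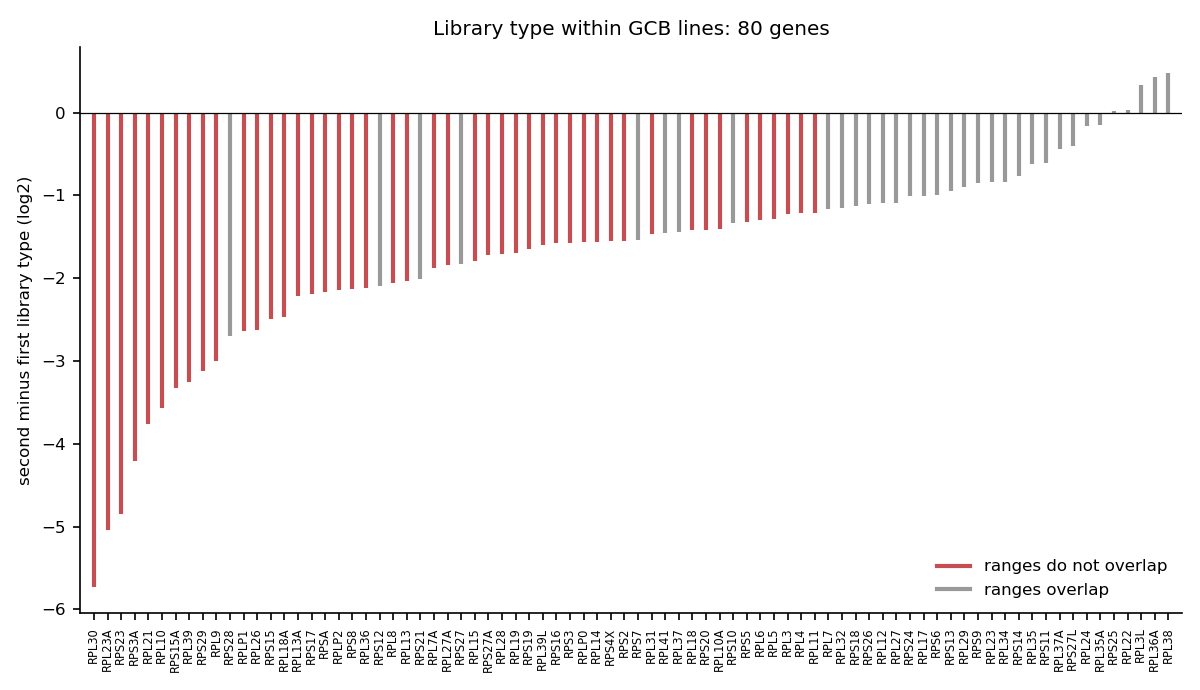
Second minus first library type within GCB, in log2 units, for each of the 80 members compared, in order of the difference, with members whose ranges do not overlap in red. Differences run from -5.73 for RPL30 to 0.48 for RPL38, and 46 members are red.

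The large subunit had 30 of 48 and the small subunit 16 of 32 members lower without overlap, with medians of -1.45 and -1.56. The 8 lowest members were RPL30, RPL23A, RPS23, RPS3A, RPL21, RPL10, RPS15A and RPL39, and 25 members in all were at least 2 units lower. RPL30, which binds its own pre-mRNA in yeast, was 15.49, 15.70, 15.73, 15.94, 16.06 and 16.42 in the first-type lines and 8.87 to 11.53 in the second, a difference of -5.73. RPL23A, which sits at the exit tunnel, was at 15.47 to 16.57 and 9.72 to 12.96, a difference of -5.04. The median of RPL30 was 1473 reads per M in the first and 36.5 in the second type, and that of RPL23A 1865 and 62.9. RPS23, at the decoding centre, was at 15.67 to 16.53 and 9.98 to 11.87, a difference of -4.85. RPS3A was at 15.70 to 16.36 and 9.78 to 13.72, a difference of -4.20.

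At the other end, some members differed little on average between the types. RPL38, whose loss in mice alters the translation of Hox mRNAs, was 14.36 to 15.06 in the first type and 12.91 to 18.40 in the second, a mean difference of 0.48. RPL22 was 13.32 to 14.27 and 13.43 to 14.78, a difference of 0.03, with SDs of 0.35 and 0.44. RPS25, a protein needed by several viral internal ribosome entry sites, differed by 0.01, RPL35A by -0.15 and RPL24 by -0.16, and RPL36A by 0.42. Members named by role lay at both ends, with RPL10 at -3.56 and RPL22 at 0.03, and in between. RPS15 differed by -2.49, RPSA by -2.16, RPS19 by -1.65, RPLP0 by -1.57 and RPS4X by -1.55. RPL5 differed by -1.29, RPL11 by -1.21 and RPS14 by -0.76, and RPS6 was at 17.01 and 16.02 in the first and second type. All 3 stalk genes were lower without overlap.

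The single second-type ABC line gave a like picture at greater depth. NU-DUL-1 was below all 5 first-type ABC lines in 79 of 79 members, where 25.8% of all genes were, with a median difference of -1.74 over members and -0.04 over all genes. RPL30 was 11.46 in NU-DUL-1 and at least 15.53 in the first-type ABC lines. Over 79 members the differences of NU-DUL-1 and those of the GCB lines had a correlation of 0.62, a description across genes that share a library type. RPS26 and RPL38, which overlapped between types in GCB, had differences of -3.97 and -1.43 from the first-type ABC mean in NU-DUL-1.

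Members also varied more among second-type lines. In GCB the SD was larger in the second type for 78 of 80 members, with a median of 0.80 against 0.36, while over all genes it was 0.71 against 0.45. The members with the largest SD, named after their values were seen, were RPS26, RPS28 and RPL38. RPS26 was 9.78 in DB, 10.22 in OCI-Ly7, 10.30 in OCI-Ly1, 13.32 in DOHH-2, 14.81 in Karpas422, 15.32 in SU-DHL-6, 16.45 in WSU-DLCL2 and 16.89 in NU-DHL-1. These values rest on 115 to 8858 reads, so counting error is small against their spread. RPS28 was 9.19 in Karpas422, 10.79 in OCI-Ly1, 11.33 in OCI-Ly7, 11.74 in DOHH-2, 11.85 in DB, 14.45 in SU-DHL-6, 16.23 in WSU-DLCL2 and 17.00 in NU-DHL-1. RPL38 was 12.91 in DB and 13.17 in DOHH-2, and 16.18 in SU-DHL-6, 17.17 in WSU-DLCL2 and 18.40 in NU-DHL-1. SU-DHL-6, WSU-DLCL2 and NU-DHL-1 were thus high in all 3 genes, and NU-DHL-1 was the highest second-type line in 37 of 80 members. Karpas422 was the lowest in 44. RPS29 had another order, with 9.17 in Karpas422, 10.30 in SU-DHL-6 and 13.36 in OCI-Ly7.

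**Figure D5:**
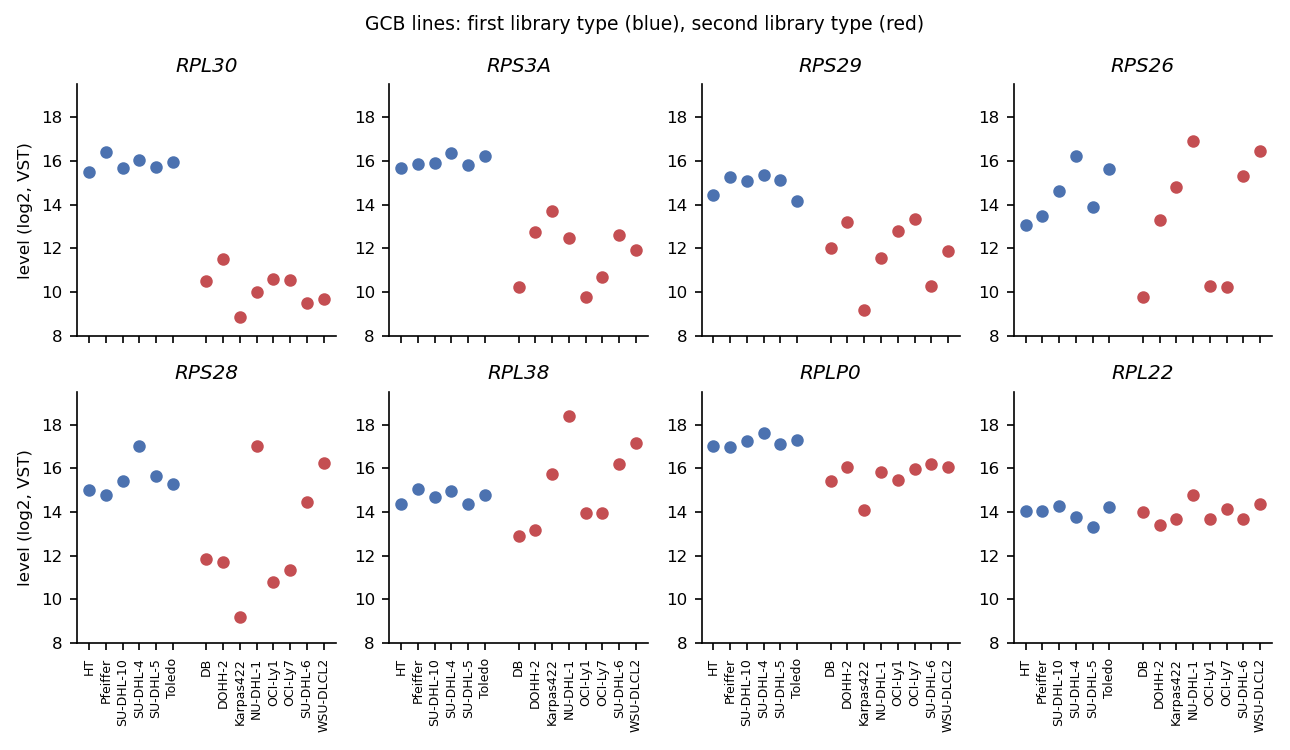
Levels (log2, VST) of 8 members in the 6 first-type (blue) and 8 second-type (red) GCB lines, 1 point per line. RPL30, RPS3A, RPS29 and RPLP0 do not overlap between types, RPS26, RPS28 and RPL38 span 7.11, 7.81 and 5.49 units in the second type, and RPL22 is at 13.32 to 14.78 in all 14 lines.

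Processed pseudogenes of these genes were counted beside their parents. The table held 529 rows named as pseudogenes of a member, and 70 of the 80 members had at least 1. Their reads came to 0.458 to 1.21% of member reads in first-type lines and 1.58 to 6.38% in second-type lines. The pseudogene share of the parent's reads was higher in the second type for 56 of the 70. For RPS3A, with 18 such rows, the median over GCB lines was 1.74% in the first type and 90.4% in the second: pseudogenes had 27.8 and 55.1 reads per M, and the parent's 1564 and 141. For RPS28, with 1 row, it was 2.73% and 128%, with pseudogenes at 41.2 and 419 reads per M and the parent at 1114 and 124. For RPL23A, with 40 rows, pseudogenes had 39.0 and 40.7 reads per M. Pseudogenes of RPL30 and RPS23 had 0.225 and 0.460 reads per M for RPL30 and 5.17 and 4.12 for RPS23. Across the 80 members the rank correlation between the pseudogene share in the first type and the type difference was -0.17. The 19 members with a share of at least 1% had a median difference of -2.16 and the other 61 had -1.42. How the reads of near-identical copies were assigned is not given in the sources used here, so its part in these differences was not tested.

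All 34 lines were also fitted together without a term for library type. In this fit 14 of 80 members were called between MCL and GCB, where 23.7% of all genes were. All 14 members were higher in MCL. They were RPL9, RPS23, RPS3, RPS3A, RPL30, RPL10, RPL23A, RPLP0, RPS4X, RPL13A, RPLP1, RPS15A, RPL21 and RPL7A, with differences from 0.96 for RPLP0 to 2.78 for RPL30 (limma adjusted p = 0.0321 and 0.0192). Across the 4 pathologies 6 of 80 members were called, where 13.2% of all genes were. With library type as a term the counts were 0 and 0. In that pooled fit 8 of the 14 GCB lines and 0 of the 11 MCL lines were of the second type.

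Genes that work with the ribosome were followed through lists. FAU and RACK1 had correlations of 0.94 and 0.84 with the median of the 79 members over the first-type lines. FAU, whose product is cleaved to a ubiquitin-like protein and RPS30, ran from 11.29 in HBL-2 to 14.67 in JVM2, and had a second minus first type difference within GCB of -2.63. A list of small subunits of oxidative phosphorylation encoded in the nucleus (44 genes) had a median correlation of 0.77. Mitochondrial ribosomal proteins (75 genes) had 0.62 and translation factors known for 5′TOP tracts (13 genes) 0.59. Single genes ranged from -0.40 to 0.92, from -0.49 to 0.88 and from -0.71 to 0.88 in these 3 lists. Ribosome biogenesis factors such as NCL and FBL (30 genes) had 0.08, RNA polymerase I genes (13 genes) -0.12 and mTOR pathway and TOP regulators such as LARP1 (11 genes) -0.42, against 0.01 over all genes. These are descriptions over 25 libraries with shared depth and composition.

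In the pathology comparisons few genes of these lists were called, beside the same backgrounds of 3.41% for MCL minus GCB and 0.814% for MCL minus ABC. The snoRNA host gene SNHG12 was lower in MCL than in GCB by -1.41 ± 0.32 (SE, limma adjusted p = 0.0162) and than in ABC by -1.62 ± 0.34 (SE, limma adjusted p = 0.0201), 1 of 13 host genes in each. POLR1C, a subunit shared by RNA polymerases I and III, was lower in MCL than in ABC by -1.27 ± 0.30 (SE, limma adjusted p = 0.0399), 1 of 13 genes of the polymerase list. The translation factors, biogenesis factors, mTOR regulators, mitochondrial ribosomal proteins and oxidative phosphorylation subunits gave 0 limma calls in the 6 comparisons, as did the paralogs RPL22L1, RPL26L1, RPL36AL and RPL7L1. Between library types within GCB, where 3.22% of all genes were lower and 3.59% higher without overlap, 5 of 13 translation factors, 14 of 75 mitochondrial ribosomal proteins, 12 of 44 oxidative phosphorylation subunits and 3 of 13 snoRNA host genes were lower. So were 2 of 13 RNA polymerase I genes, 1 of 30 biogenesis factors, 0 of 11 mTOR pathway and TOP regulators and 0 of the 4 paralogs, and 1 mitochondrial ribosomal protein was higher.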

How the data were processed

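The authors deposited 1 table of log2-scale values from a variance-stabilising transform for 31975 genes in 34 lines. The submitters' processing notes name STAR 2.5.3a, R 3.6.1, DESeq2 1.26.0 and GRCh38, and the settings are not given in the sources used here. The values step in whole reads: inverting the transform gave whole numbers for 100% of values within 0.05, and these recovered reads were used for shares, depths and limma voom. The main test was limma 3.58.1 (R 4.3.3, trend) on the deposited log2 values with 1 mean per pathology in the 25 first-type lines. Genes needed 3 lines more than 1 unit above the lowest value, with Benjamini-Hochberg adjustment over all genes at 0.05. The procedure was tested on simulated data. Genes were drawn there independently, without the shared movement of the members, so the simulation cannot show how the test performs for such a family. Library type was read from ZNF593 at a threshold of 4.56, and types were compared by ranges without a test.

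Lines were grouped by the labelled pathology, and replicate numbers only name lines. Members named are those past a threshold, the 8 most and 5 least variable, the 8 highest and 8 lowest between types, and members by role. RPS2, RPL28, RPS28, FAU and RACK1 were named after their values were seen. Members and lists were chosen with earlier results of these data known. Alternatives covered scaling, filter, test, lines in the fit and leaving out each line. Without gene lengths, levels were not compared between genes. Some results, among them the B-cell marker levels and 1 alternative for the family share, are not reported here.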

Additional observations from a re-analysis of the deposited data

Results flagged for a closer look

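In 9 of 120 groups examined (39 named members and the family share), the highest or lowest line stood apart from the rest of its group by Dixon's 95% criterion, which chance alone meets in about 1 in 20 groups. Among first-type GCB lines, SU-DHL-4 was high in RPL35A at 16.09, where the next line had 14.68, and in RPL7A at 17.27, where the next had 16.72. SU-DHL-5 was high in RPS27L at 11.74, against 10.39 in the next line. Among second-type GCB lines, Karpas422 was low in RPLP0 at 14.08, where the next line had 15.40, and in RPS19 at 12.97, where the next had 14.14. DOHH-2 was high in RPS15A at 11.34, against 9.97. Among first-type ABC lines, SU-DHL-8 was low in RPL23A at 15.36, with the next line at 15.98, in RPL4 at 16.75, with the next at 17.50, and in RPS29 at 14.40, with the next at 15.55.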

How the results depend on the processing

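With all 34 lines and no term for library type, 14 of 80 members were called for MCL minus GCB, where 23.7% of all genes were. Across the 4 pathologies 6 of 80 were called, where 13.2% of all genes were. The median member difference for MCL minus GCB was 0.61 in that fit. Leaving out each of the 25 lines gave 0 calls throughout, and medians of -0.49 to -0.14 for MCL minus GCB, -0.64 to -0.30 for MCL minus ABC, -0.95 to -0.23 for MCL minus BL, 0.15 to 0.33 for ABC minus GCB, -0.07 to 0.68 for BL minus GCB and -0.27 to 0.51 for BL minus ABC. Without SU-DHL-8 the last was -0.06, and it was below 0 without Raji or without Ramos as well. Centring each line on the median of the members, which removes their shared shift by construction, left medians of 0.02 for MCL minus GCB, 0.05 for MCL minus ABC, 0.02 for MCL minus BL and -0.02 for ABC minus GCB.

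The count of members lower without overlap in the second type within GCB was 36 after median centring, where 457 of all 19736 genes were. It was 38 after scaling to library totals, where 419 genes were, and 22 after quantile normalization, where 663 were. The main comparison had 46 members and 635 genes. When each of 14 lines was left out, 46 to 50 members and 661 to 755 genes were lower. Against all first-type lines 5 members were lower, where 0.997% of all genes were. The causes were not tested. For the unmarked MCL lines, 2 alternatives were chosen after seeing the data. Without SP-49, 67 members were lower without overlap, where 1017 of 16079 genes were. After median centring 52 members were, where 769 of 16321 genes were. The median family share of the first-type ABC lines moved from 14.1% to 16.6% without mitochondrially encoded reads. For NU-DUL-1 it was 6.13% without those reads and 6.10% with pseudogene reads added. The other 620 recomputed values were counted as unchanged. For a median member difference this only meant a move smaller than the median SD of a member, which allows a change of sign. Of 33 alternatives, the sign changed in 3 for MCL minus GCB, 2 for MCL minus ABC and 1 for MCL minus BL. It changed in 1 for ABC minus GCB, 1 for BL minus GCB and 3 for BL minus ABC. No paired analysis was possible because the replicate numbers only name lines in accession order. Depth limits the second type most: RPL3L, RPL10L and RPS10L had 0 to 3 reads in its GCB lines.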
